A study of Homo sapiens with 2 samples.

Results

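The RAB proteins are the largest branch of the RAS-like small GTPases. Each RAB works as a switch: in the GTP-bound form it sits on the surface of a particular membrane and recruits effectors (tethers, motor adaptors and lipid kinases) that bud, carry, dock or fuse vesicles. Guanine nucleotide exchange factors (GEFs) turn a RAB on, GTPase-activating proteins (GAPs) turn it off, and GDP dissociation inhibitors (GDIs) lift the inactive, lipid-anchored form off the membrane and return it to the cytosol.

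The members described here are the genes of the deposited table whose symbol is RAB followed by a number and at most 1 letter. There were 51 of them among 13137 genes, and effectors, RAB-like genes and pseudogenes were left out by this rule. RAB29 was listed under its older symbol RAB7L1 (35 tags for shRNA-Con, 18 for shRNA-SOX2) and was therefore not a member. Of the 51 members, 40 had at least 20 tags in both libraries together and 11 had fewer.

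The cells were A549, a human lung adenocarcinoma line. One stable line, a puromycin-selected polyclone, carried a lentiviral doxycycline-inducible H1TetO hairpin against SOX2 (A549-H1tetO-shRNA-SOX2), and the other, selected likewise, carried a scrambled hairpin (A549-H1tetO-shRNA-Con). Lentivirus, puromycin selection and 4 days of doxycycline were thus common to both, and each condition is 1 such line. mRNA was profiled by digital gene expression, in which every captured transcript yields a short tag that is counted, with 1 library per condition and hence no replicate error. The table heads its value columns SC and S1, and SC was taken to stand for shRNA-Con, which leaves S1 for shRNA-SOX2.

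The libraries held 2304184 gene tags (shRNA-Con) and 2093816 gene tags (labelled shRNA-SOX2). SOX2 itself, the target of the hairpin, had 16 tags for shRNA-Con against 23 for the library labelled shRNA-SOX2 (ratio 1.58, 95% interval 0.80 to 3.2), so its mRNA was not detectably lower. The direction of every difference given here rests on the label and not on this gene. The epithelial keratins KRT8 and KRT18 had 7702 and 10318 tags for shRNA-Con against 12729 and 7887 in the library labelled shRNA-SOX2. KRT7 had 3899 and 1606 tags, KRT19 35 and 127, CDH1 50 and 50 and EPCAM 8 and 4 in the same order, so that the keratins differed between the lines in both directions. Genes abundant in A549 did so too, with 7035 and 14268 tags for ALDH1A1, 4179 and 6200 for NQO1, 6039 and 4581 for AKR1B10, 770 and 286 for AKR1C2 and 339 and 322 for ABCC2. The part of such differences between the lines in the RAB values was not tested. Of the markers of other cell types, 2 of 4 leukocyte genes were found and summed to 13 and 12 tags, PECAM1 (endothelium) had 3 and 0, and COL1A1 (fibroblasts) had 44 and 43. In bulk RNA, fewer cells with a transcript and less transcript per cell cannot be told apart.

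For every gene the share of tags was tested between the libraries (Fisher's exact test, two-sided), and p-values were adjusted by the Benjamini-Hochberg procedure over all 13137 genes. A gene is called where its adjusted p is under 0.001 (FDR 0.001). Such a test sets 1 library against another and not one condition against another, and its 95% Clopper-Pearson intervals hold counting error alone. Levels are CPM, counts per 1000000 gene tags. Since a transcript gives 1 tag whatever its length, they need no division by length. Where a pair of tag counts is given, shRNA-Con comes first.

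Of the 51 RAB members, 9 passed this threshold (17.6%), against 21.7% of all genes. The library labelled shRNA-SOX2 had more tags for RAB37, RAB8B, RAB7A and RAB13 and fewer for RAB39B, RAB10, RAB1B, RAB32 and RAB1A. The 4 higher members stand against 9.53% of all genes called higher, and the 5 lower members against 12.2% called lower. The share of RAB genes called was thus near that of the whole table. The split of 4 higher and 5 lower depended on the scaling, with 6 and 5 under TMM factors and 3 and 6 with clean tags. Under these scalings 21.3% and 23.0% of all genes were called. No spread between cultures enters this test. With an assumed coefficient of variation of 0.1 between cultures, in edgeR's exact test, 4 members remained past FDR 0.001 (RAB8B, RAB39B, RAB10 and RAB1B), with 8.88% of all genes called. With 0.2 the count was 0, with 0.86% of all genes called at FDR 0.001. At an unadjusted p under 0.05 in the same test there were 10 members, and the share of all genes at that threshold was not computed. By depth, 7 of the 23 members with 100 or more tags were called (30.4%, against 39.1% of all genes that deep), 2 of the 17 with 20 to 99 tags (11.8% against 9.8%) and 0 of the 11 with fewer. The fewest tags of any called gene in the table was 12, and 43 members had at least that many. Of all genes with 12 or more tags, 26.2% were called.

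Over the 40 members with at least 20 tags the median log2 fold change was -0.14, and over the 10045 such genes of the table it was -0.10. The log2 fold change was above 0 for 19 members and below 0 for 21. The spread was wide: the log2 fold changes ran from -2.55 for RAB39B to 2.25 for RAB37, and 9 of the 40 members (22.5%) differed by at least 2-fold, against 23.4% of all genes.

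**Figure D1:**
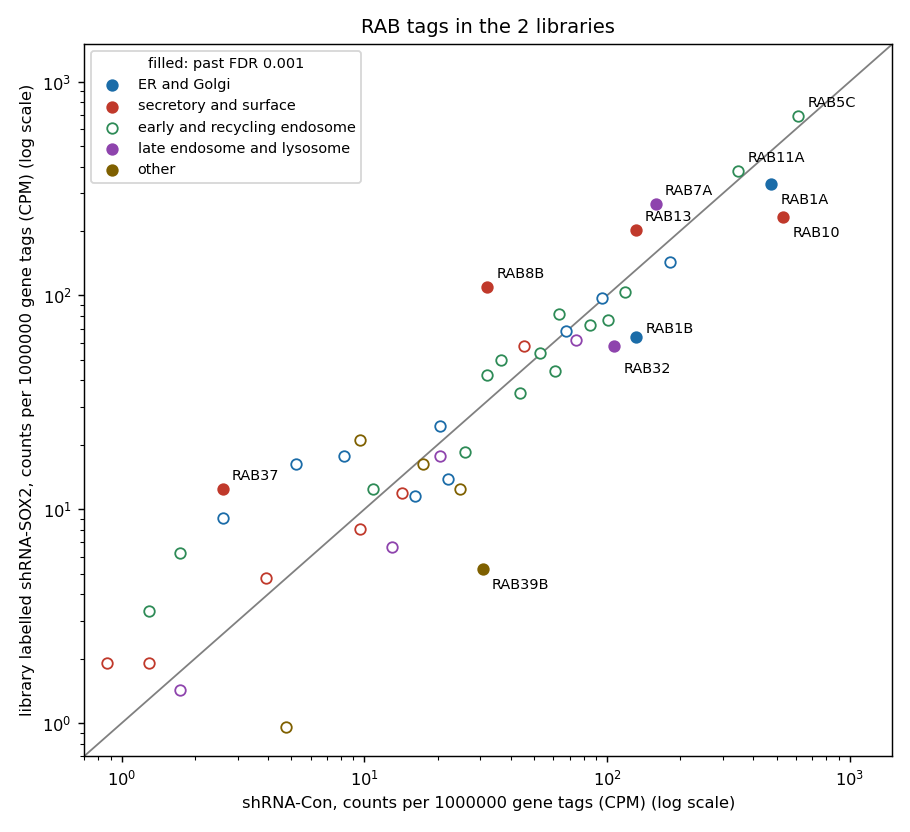
Each point is 1 of the 47 RAB members with tags in both libraries, at its level for shRNA-Con (horizontal, CPM, log scale) and in the library labelled shRNA-SOX2 (vertical, same unit and scale). Colours give the role groups, filled points passed FDR 0.001 and the grey line marks equal levels. RAB10 and RAB1A lie below the line among the most abundant members, and RAB8B and RAB7A lie above it.

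In shRNA-Con the RAB members together had 8904 tags (3860 CPM), and in the library labelled shRNA-SOX2 they had 7502 (3580 CPM). The ratio of these sums was 0.927 (95% interval 0.899 to 0.956). Without RAB10, left out with its values known, the ratio was 1.01 (0.974 to 1.04). No other member was left out in the same way. Both ratios hold for gene tags, while clean tags lower every log2 fold change by 0.11 and TMM factors raise it by 0.07. The distance of either ratio from 1 therefore depends on the scaling. By tags in both libraries together, the 5 most abundant members were RAB5C, RAB1A, RAB10, RAB11A and RAB7A, and they carried 55.1% of the RAB tags for shRNA-Con against 53.1% in the other library. RAB5C, an early endosome GTPase, ranked first in both. RAB10 was second in shRNA-Con, with 13.8% of the RAB tags, and at rank 5 in the library labelled shRNA-SOX2, with 6.46%. RAB8B moved from rank 22 to rank 8.

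RAB1A and RAB1B, which direct traffic from the endoplasmic reticulum to the Golgi, both had lower counts in the library labelled shRNA-SOX2. RAB1A had 1094 tags for shRNA-Con (475 CPM) and 696 in the other library (332 CPM). Its log2 fold change was -0.51 (ratio 0.7, 95% interval 0.636 to 0.771, adjusted p = 1.76e-12, Fisher's exact test). RAB1B had 304 and 134 tags (132 and 64.0 CPM), a log2 fold change of -1.04 (ratio 0.485, 0.393 to 0.596, adjusted p = 8.83e-12, Fisher's exact test). These 2 were the members called among the 13 of the ER and Golgi group (15.4%, against 21.7% of all genes).

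The other ER and Golgi members did not pass the threshold. RAB34, a Golgi RAB with a part in ciliogenesis, had 418 and 300 tags (log2 fold change -0.34, adjusted p = 0.00694, Fisher's exact test), and it was called when the libraries were scaled by clean tags (the library total behind the deposited TPM, which is larger than the gene tags). RAB18, known for its place on lipid droplets and the ER, had 220 and 203 tags, and RAB2A had 156 and 143, so that both were close to equal after scaling (ratios 1.02 and 1.01). A further 3 members of this group with few tags had more tags in the library labelled shRNA-SOX2 without passing the threshold. RAB6B, a Golgi RAB best known from neurons, had 12 and 34 tags (log2 fold change 1.64, adjusted p = 0.00148, Fisher's exact test) and was called under TMM scaling, which trims extreme genes before setting the library sizes. RAB36 had 6 and 19 tags and RAB43 had 19 and 37. RAB6A had 37 and 24 tags, RAB2B 51 and 29, and RAB33B, which acts in autophagosome formation, 47 and 51.

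RAB10 showed the lowest adjusted p-value of the family. This GTPase carries vesicles to the plasma membrane, among them the glucose transporter vesicles of fat cells. It had 1228 tags for shRNA-Con (533 CPM) and 485 in the library labelled shRNA-SOX2 (232 CPM), a log2 fold change of -1.20 (ratio 0.435, 95% interval 0.390 to 0.483, adjusted p = 8.95e-58, Fisher's exact test). Its close relatives RAB8B and RAB13 went the opposite way. RAB8B, which acts in polarised exocytosis, had 74 tags for shRNA-Con (32.1 CPM) and 229 in the other library (109 CPM), a log2 fold change of 1.77 (ratio 3.41, 2.61 to 4.49, adjusted p = 1.53e-21, Fisher's exact test). RAB13, which takes part in tight junction assembly, had 303 and 423 tags (131 and 202 CPM), a log2 fold change of 0.62 (ratio 1.54, 1.32 to 1.79, adjusted p = 9.09e-08, Fisher's exact test). RAB8A had 105 and 121 tags and did not pass the threshold (adjusted p = 0.169, Fisher's exact test).

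The sequences upstream of RAB10 and RAB8B are shown because these had the lowest adjusted p-values among the lower and the higher members, and that of RAB13 because it was the 1 member with a SOX-type motif among the 6 called members that had an upstream sequence. They are the 250 bases before a RefSeq start (GRCh38.p14), on the gene's strand, with matches to ACAATG or ACAAAG on either strand in capitals. These hexamers are short forms of the motif bound by the HMG box of SOX proteins. The RAB13 sequence belongs to the second of its 2 listed starts, and the window of the other start held no match.
RAB10 upstream, plus strand, chr2:26033834-26034083: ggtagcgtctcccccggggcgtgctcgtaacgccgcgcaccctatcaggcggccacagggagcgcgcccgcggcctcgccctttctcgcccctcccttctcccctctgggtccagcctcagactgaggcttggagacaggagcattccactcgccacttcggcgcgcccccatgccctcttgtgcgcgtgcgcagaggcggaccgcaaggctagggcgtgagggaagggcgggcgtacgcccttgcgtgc
RAB8B upstream, plus strand, chr15:63189356-63189605: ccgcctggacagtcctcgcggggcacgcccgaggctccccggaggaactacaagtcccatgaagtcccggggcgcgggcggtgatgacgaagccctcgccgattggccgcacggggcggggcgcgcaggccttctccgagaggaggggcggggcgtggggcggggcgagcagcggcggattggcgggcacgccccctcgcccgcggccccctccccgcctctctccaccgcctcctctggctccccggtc
RAB13 upstream, minus strand, chr1:153985394-153985643: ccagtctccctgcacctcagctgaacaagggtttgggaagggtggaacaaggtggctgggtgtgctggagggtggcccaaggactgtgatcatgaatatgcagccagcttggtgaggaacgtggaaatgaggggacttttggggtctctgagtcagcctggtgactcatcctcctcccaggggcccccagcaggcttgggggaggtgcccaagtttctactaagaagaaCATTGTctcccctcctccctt

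Upstream sequences were found in the RefSeq table for 39 of the 51 members, 6 of them called. Either hexamer was present for 7 of these 39 genes (17.9%), against 24.9% of the 27305 genes in the table, and for 1 of the 6 called members. A gene counts here where any of its listed starts had a match. By sequence, 7 of 59 held a match (11.9%), against 21.2% of all. The 7 were RAB13, RAB17, RAB18, RAB27A, RAB2B, RAB30 and RAB5A. Upstream sequences of the RAB members had a median GC content of 64.8%, against 58.0% for all, and the part of base composition in these shares was not tested. A match describes letters in a window and a window without one says nothing of SOX2 binding.

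RAB37, a RAB of secretory granules, had 6 tags for shRNA-Con (2.6 CPM) and 26 in the library labelled shRNA-SOX2 (12.4 CPM). Its log2 fold change of 2.25 was the highest among the members with at least 20 tags, with a wide interval (ratio 4.77, 1.92 to 14.2, adjusted p = 0.000614, Fisher's exact test). With clean tags it was no longer past FDR 0.001. The other granule RABs had few tags and did not pass: RAB27A had 22 and 17, RAB26 had 33 and 25, and RAB27B had 9 and 10. The RAB3 genes, which serve regulated exocytosis in neurons and endocrine cells, had between 0 and 4 tags in either library.

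Among the 15 members of early and recycling endosomes, none passed FDR 0.001 with gene tags (0 of 15, against 21.7% of all genes). Of all genes with 100 or more tags 39.1% were called, a depth that RAB4B, RAB15, RAB20 and RAB17 did not reach. The 15 members held the most tags of the 5 role groups. Together they had 3679 tags for shRNA-Con against 3498 for the library labelled shRNA-SOX2 (ratio 1.05, 95% interval 0.999 to 1.10). For the 13 members with at least 20 tags, log2 fold changes lay between -0.48 (RAB4B, with 60 and 39 tags) and 0.46 (RAB21), with a median of 0.03.

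RAB5C had 1418 and 1439 tags (615 and 687 CPM), a ratio of 1.12 with an interval of 1.04 to 1.20 (adjusted p = 0.0111, Fisher's exact test), and it was called under TMM scaling. RAB11A, the RAB of recycling endosomes, had 800 tags in each library, a ratio of 1.10 (0.996 to 1.22). RAB5A, which drives early endosome fusion, had 233 and 160 tags (log2 fold change -0.40, adjusted p = 0.0197, Fisher's exact test). The interval of RAB14, with 272 and 218 tags, ran from 0.735 to 1.06, and that of RAB4A, a RAB of fast recycling with 196 and 152 tags, from 0.686 to 1.06. RAB22A had 141 and 93 tags and RAB11B had 101 and 73, while RAB5B was almost level at 122 and 113. RAB31 had 146 and 171 tags, RAB35, which acts in fast recycling, had 74 and 89, RAB21, an early endosome RAB that carries integrins, had 84 and 105, and RAB15 had 25 and 26. Of these 9 members, none passed in either direction. The 2 members of this group under 20 tags were RAB20, with 4 and 13 tags, and RAB17, a RAB of polarised epithelia, with 3 and 7.

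**Figure D2:**
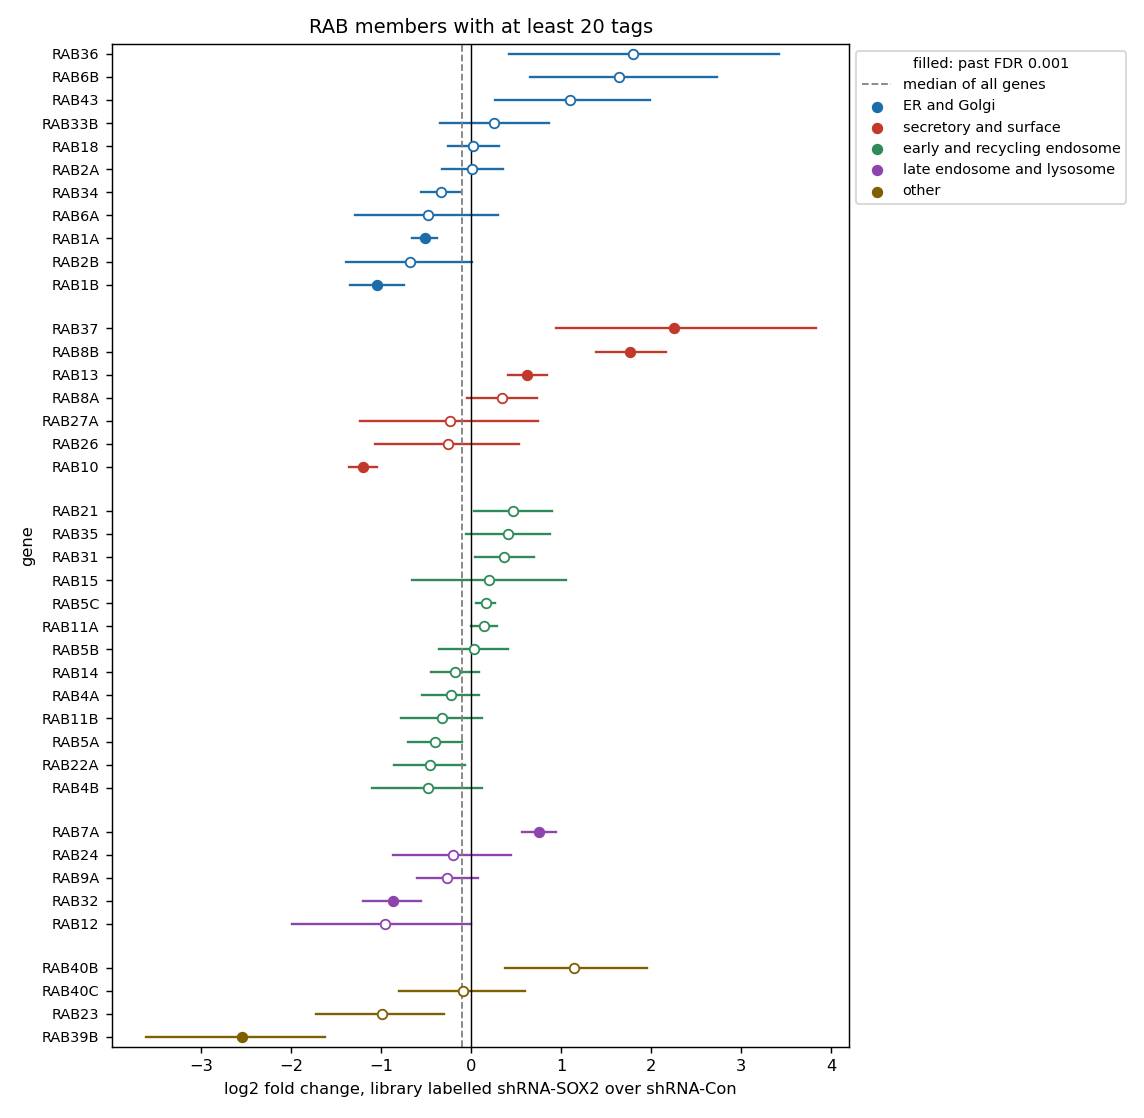
Log2 fold change (library labelled shRNA-SOX2 over shRNA-Con) of the 40 RAB members with at least 20 tags, by role group. Bars are 95% Clopper-Pearson intervals for counting error, filled points passed FDR 0.001 and the dashed line is the median of all genes, -0.10. The early and recycling endosome members lie between -0.48 and 0.46, with no filled point.

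In the late endosome and lysosome group, RAB7A and RAB32 passed the threshold in opposite directions. RAB7A, which brings late endosomes and autophagosomes to the lysosome, had 366 tags for shRNA-Con (159 CPM) and 560 in the library labelled shRNA-SOX2 (267 CPM). This is a log2 fold change of 0.75 (ratio 1.68, 1.47 to 1.93, adjusted p = 7.95e-14, Fisher's exact test). RAB32, a RAB of lysosome-related organelles and mitochondria, had 246 and 122 tags (107 and 58.3 CPM), a log2 fold change of -0.87 (ratio 0.546, 0.436 to 0.681, adjusted p = 2.30e-07, Fisher's exact test). The nearest relative of RAB32, the melanosome RAB38, had 4 and 3 tags. RAB9A, which returns receptors from late endosomes to the Golgi, had 172 and 130 tags, RAB24 had 47 and 37 and RAB12 had 30 and 14, and none of these 3 passed.

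RAB39B had the lowest log2 fold change of the members with at least 20 tags. It is an X-linked gene best known from neurons, where its loss causes intellectual disability with early parkinsonism. It had 71 tags for shRNA-Con (30.8 CPM) and 11 in the library labelled shRNA-SOX2 (5.25 CPM), a log2 fold change of -2.55 (ratio 0.170, 95% interval 0.0814 to 0.324, adjusted p = 1.13e-09, Fisher's exact test). RAB23, a negative regulator of Hedgehog signalling, had 57 and 26 tags (log2 fold change -0.99, adjusted p = 0.01, Fisher's exact test). The RAB40 proteins carry a SOCS box and serve ubiquitin ligases. Of these, RAB40B had 22 and 44 tags (adjusted p = 0.00714, Fisher's exact test) and RAB40C had 40 and 34. RAB28 had 11 and 2 tags, a ratio of 0.2 with an interval of 0.0216 to 0.917.

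Of the 51 members, 4 had 0 tags in one library, and a count of 0 allows up to 3 tags (1.3 CPM for shRNA-Con, 1.43 CPM for shRNA-SOX2). RAB30 had 6 tags and RAB3D had 4 in shRNA-Con with 0 in the library labelled shRNA-SOX2. RAB33A had 0 and 4 tags and RAB3C had 0 and 3. No fold is given for these 4 members. None passed the threshold, and at this depth their differences were not detectable.

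Related members can be compared with each other by the ratio of their ratios, which does not depend on how the libraries are scaled. The members with at least 20 tags that share a number form 10 pairs, and for 5 of them the 95% interval excluded 1. These intervals are not adjusted for the number of pairs, and the share among pairs of other genes was not computed. In the pairs RAB6B and RAB6A, RAB40B and RAB40C, and RAB5C and RAB5A, neither member was itself called with gene tags. RAB8B had a ratio 2.68 times that of RAB8A (95% interval 1.82 to 3.96). RAB6B had 4.30 times that of RAB6A (1.76 to 11.1), RAB40B had 2.34 times that of RAB40C (1.12 to 4.96) and RAB5C had 1.48 times that of RAB5A (1.19 to 1.84). RAB1A, although lower itself, had 1.44 times the ratio of RAB1B (1.15 to 1.82). For the pairs RAB11A and RAB11B, RAB2A and RAB2B, RAB4A and RAB4B, RAB5C and RAB5B, and RAB5B and RAB5A, the interval held 1. The widest of these, for RAB2A over RAB2B, ran from 0.943 to 2.79, and an interval that holds 1 does not show that paralogues moved alike.

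The subfamily of RAB8, RAB10 and RAB13 was compared in the same way in 5 further pairs, chosen after their values were seen. RAB8B had 7.83 times the ratio of RAB10 (5.87 to 10.5), RAB13 had 3.53 times (2.94 to 4.25) and RAB8A had 2.92 times (2.18 to 3.91). The ratio of RAB8B was 2.22 times that of RAB13 (1.63 to 3.04). RAB13 and RAB8A could not be separated (1.21, 0.887 to 1.65). In tags, RAB10 outnumbered RAB8A, RAB8B and RAB13 together in shRNA-Con, with 1228 against 105, 74 and 303. In the library labelled shRNA-SOX2 it did not, with 485 against 121, 229 and 423.

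**Figure D3:**
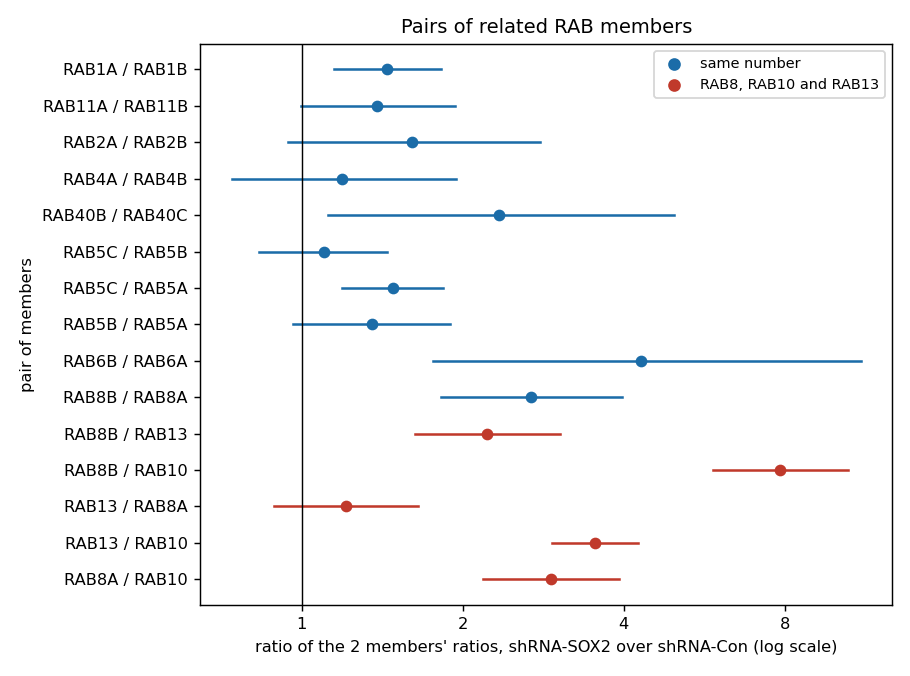
Ratio of ratios (log scale) for pairs of related RAB members, as the first member's shRNA-SOX2 over shRNA-Con ratio divided by that of the second, with 95% intervals for counting error. The member with the higher ratio is always named first, so the side of 1 carries no information, and RAB8B over RAB10 is farthest from 1 at 7.83.

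A list of other genes of the RAB cycle was used beside these members, with 141 symbols listed and 128 found. Of the 128, 23 passed FDR 0.001 (18.0%, against 21.7% of all genes), 9 of them higher and 14 lower. Over the 110 with at least 20 tags the median log2 fold change was -0.17. The share called was near that of the table as a whole.

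Of 7 genes for prenylation, membrane extraction and chaperoning of RABs, 2 were called (28.6%, against 21.7% of all genes). The library labelled shRNA-SOX2 had fewer tags for both, and 12.2% of all genes were called in that direction. Of all genes with 100 or more tags 39.1% were called, a depth that all of the 7 but RABGGTA reached. So small a count is read as no more than values. GDI2, a GDP dissociation inhibitor, had 551 and 311 tags (log2 fold change -0.69, adjusted p = 1.22e-10, Fisher's exact test). RABIF, a RAB-binding chaperone also called MSS4, had 173 and 98 tags (-0.68, adjusted p = 0.000738, Fisher's exact test), and was not called with TMM factors or the median ratio. The RAB escort proteins CHM and CHML had 51 and 76 tags and 162 and 150 tags. The subunits of RAB geranylgeranyl transferase, which attaches the lipid anchor, had 45 and 25 tags (RABGGTA) and 176 and 108 tags (RABGGTB), and none of these 4 genes passed. RABAC1, a RAB-binding Golgi protein, had 316 and 315 tags and did not pass.

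Of 41 exchange factors and their subunits, 3 were higher and 6 lower (22.0% called, against 21.7% of all genes). Over all genes, 9.53% were called higher and 12.2% lower. DENND3, a GEF for RAB12, had 54 and 171 tags (log2 fold change 1.80). ANKRD27, a GEF for RAB21 that also binds RAB32 and RAB38, had 145 and 32 tags (-2.04). The other lower ones were DENND5A (115 and 38 tags), the RAB5-family GEF RIN3 (115 and 39), the RAB10 GEF DENND4C (84 and 31), TRAPPC6B (74 and 28) and HPS1 (169 and 68). Of 37 GAPs and related TBC-domain genes, 3 were higher and 3 lower (16.2% called). TBC1D7, which is a subunit of the TSC complex, had 423 and 127 tags (-1.60), while TBC1D8 had 162 and 315 (1.10) and the RAB35 GAP TBC1D13 had 16 and 52 (1.84). Of 43 effectors, 3 were higher and 3 lower (14.0% called). The lower ones were the RAB6 effector and dynein adaptor BICD2 (68 and 24 tags), USO1 and GOLGA5. The higher ones were RILP, FYCO1 and SYTL5, a RAB27 effector with 5 and 24 tags (2.40). With clean tags SYTL5, RILP and the exchange factor RIN2 (227 and 291 tags) were no longer called.

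**Figure D4:**
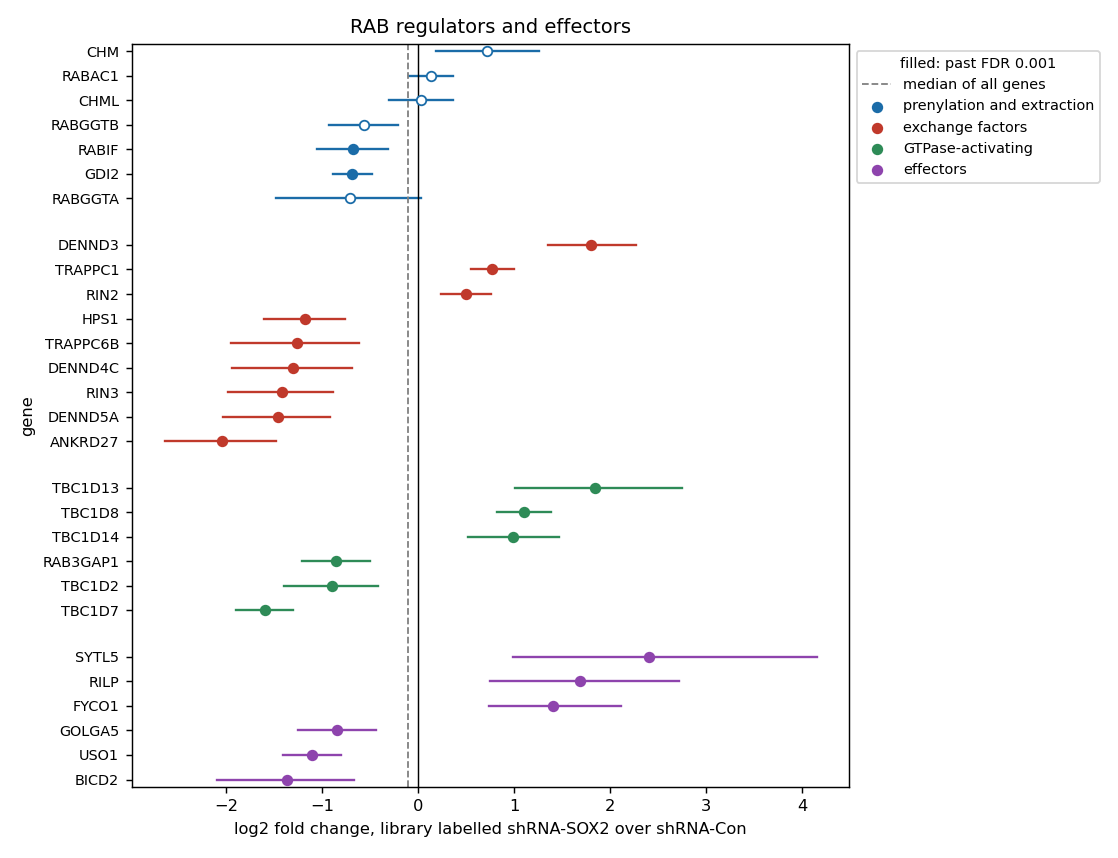
Log2 fold change (library labelled shRNA-SOX2 over shRNA-Con) of the 23 called RAB regulators and effectors and of all 7 prenylation and extraction genes, with 95% intervals for counting error. Filled points passed FDR 0.001 and the dashed line is the median of all genes, -0.10. ANKRD27 is the lowest point at -2.04 and SYTL5 the highest at 2.40.

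Partners known for some of the called members were then set beside them, from a list written with the values known. Over all genes, 9.53% were called higher and 12.2% lower, and the small counts of partners are read as no more than values. Of 12 partners of RAB1A and RAB1B, 3 were lower, 1 was higher and 8 were not called. The lower ones were the vesicle tether USO1 (308 and 130 tags, log2 fold change -1.11), the golgin GOLGA5 (154 and 78, -0.84) and the TRAPP subunit TRAPPC6B (-1.26). The higher one was another TRAPP subunit, TRAPPC1 (268 and 415, 0.77). The matrix protein GOLGA2 had 134 and 100 tags and the RAB1 GAP TBC1D20 had 271 and 194.

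For RAB7A, 9 partners were found, of which 2 were higher, 1 was lower and 6 were not called. The motor adaptors RILP (13 and 38 tags, log2 fold change 1.69) and FYCO1 (27 and 65, 1.41) bind active RAB7 and link it to dynein and kinesin. Both had more tags in the library labelled shRNA-SOX2, as RAB7A did. The other listed effectors, OSBPL1A (46 and 28, -0.58) and PLEKHM1 (48 and 43, -0.02), did not and were not called. The RILP call was lost with clean tags, and with an assumed coefficient of variation of 0.1 neither RILP nor FYCO1 was called. The RAB7 GAP TBC1D2 had 111 and 54 tags (-0.90) and was not called with TMM factors or the median ratio, while the GEF subunits MON1A and MON1B had 9 and 5 and 58 and 34. Of the 3 partners of RAB32, HPS1 (-1.18) and ANKRD27 (-2.04) were lower, as RAB32 was, and HPS4, the other subunit of the RAB32 GEF, had 62 and 45 tags and was not called. Of the 9 partners of RAB8, RAB10 and RAB13, DENND4C (-1.30) was lower and 8 were not called, among them the RAB8 GEF RAB3IP (51 and 26) and the RAB10 GAP TBC1D4 (62 and 74).

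The Gene Ontology terms in the deposited table placed 22 of the 51 members in the Golgi, of which 6 were called, and 12 in endosomes, of which 1 was called, beside 21.7% of all genes. A plasma membrane term was given for 35 members, of which 4 were called. Of 6 members with an endoplasmic reticulum term 1 was called, and of 4 with a lysosome term 1 was called. The differences between these terms were not tested. Members with an endosome term had a median log2 fold change of -0.20 and those with a Golgi term had -0.18, over 12 and 19 members with at least 20 tags. For 50 of the 51 members the process terms named protein transport.

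How tags shared between genes were counted, and whether strand was kept, is not given in the sources used here. In GENCODE release 29, 5 members have pseudogenes named after them (RAB11A, RAB28, RAB43, RAB5C and RAB9A). None of these 5 was called with gene tags, beside 21.7% of all genes. RAB5C was called with TMM factors or the median ratio. Another annotated gene covers part of the last 1000 bases of 22 of the 51 members, among them the called RAB13, RAB1A, RAB1B and RAB37. RAB10, RAB8B, RAB7A, RAB32 and RAB39B have no such neighbour and no named pseudogene.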

How the data were processed

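Digital gene expression libraries of A549-H1tetO-shRNA-SOX2 and A549-H1tetO-shRNA-Con cells, 1 each, were made from 4 µg of total RNA by oligo(dT) selection at the Beijing Genomics Institute. The authors deposited raw tag counts per Entrez Gene ID, without normalization. They also deposited TPM values (counts scaled to the clean tags of the library, with 0 written as 0.01), which were used only to recover the clean tags of the libraries, 3516266 for shRNA-Con and 3456234 for shRNA-SOX2. The authors' deposited log2 ratios, p-values and FDR compare the same libraries and were not used. The submitters' processing notes name hg19, and the aligner is not given in the sources used here. Coordinates in the table carry no chromosome and were not used.

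From the counts, levels were computed per 1000000 gene tags (CPM) and log2 fold changes as shRNA-SOX2 over shRNA-Con, with a count below 3 tags set to 3. Genes were tested by two-sided exact tests (Fisher), adjusted after Benjamini and Hochberg (Python 3.11.15, scipy 1.17.1, statsmodels 0.14.6), since 1 library per condition allows no estimate of replicate spread. Medians use genes with at least 20 tags in both libraries together. Ratios of ratios are conditional odds ratios. Alternatives were TMM factors and an exact test with an assumed coefficient of variation (R 4.3.3, edgeR 4.0.16), the median ratio (DESeq2 1.42.0), clean tags, another pseudocount, minimum counts, FDR 0.05 and a minimum fold change. The steps were tested on simulated counts with counting error alone, so that test does not cover spread between cultures. For 22 genes the symbol was recovered by Entrez Gene ID. Rows lacking a symbol made up 0.0535% (shRNA-Con) and 0.0372% (shRNA-SOX2) of gene tags.

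The genes named are all members, RAB29, the regulators and effectors past FDR 0.001 at 2-fold or more, and SOX2. Partners of called members, the 7 prenylation and extraction genes and the markers printed were added with their values known. RIN2, which was under 2-fold, was added because its call was lost with clean tags. The members, role groups and lists were chosen with earlier results of these data known. The role groups and lists were written from textbook knowledge. The result of 1 further gene is not reported here.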

Additional observations from a re-analysis of the deposited data

How the results depend on the processing

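No paired analysis was possible because there is a single library of each kind, and none could be left out. With gene tags 9 RAB members passed FDR 0.001 (4 higher and 5 lower), beside 21.7% of all genes. There were 11 with TMM factors or the median ratio (6 higher and 5 lower), beside 21.3% and 21.2% of all genes. With clean tags there were 9 (3 higher and 6 lower), beside 23.0% of all genes. Scaling therefore moved the split between higher and lower calls. Clean tags lowered every log2 fold change by 0.11, and TMM factors raised it by 0.07. With clean tags RAB37 was lost and RAB34 gained, and with TMM factors or the median ratio RAB6B and RAB5C were gained. Of the regulators and effectors, clean tags lost SYTL5, RILP and RIN2, and TMM factors or the median ratio lost TBC1D2 and RABIF. No called member changed direction under these scalings. With FDR 0.05 there were 18 members (9 higher and 9 lower), with 37.3% of all genes called. At 2-fold or more there were 5 (2 higher and 3 lower), with 12% of all genes called. With clean tags as well there were 4 (1 higher and 3 lower), with 12.8% of all genes called, an alternative chosen after seeing the data.

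The size of the spread between cultures is unknown without replicates. With an assumed coefficient of variation of 0.1 (exact test in edgeR), 4 members stayed called (RAB8B higher, a count of 1, and RAB39B, RAB10 and RAB1B lower, a count of 3), with 8.88% of all genes called. With 0.2 or 0.4 the counts of members, higher and lower alike, were 0, and 0.86% and 0% of all genes were called. At an unadjusted p under 0.05 in the same test, 10 and 2 members passed. The share of all genes at that threshold was not computed, so these counts cannot be read against a background. Of the regulators and effectors, 23 were called with gene tags, 50 with FDR 0.05, 15 at 2-fold or more, 14 with clean tags at 2-fold or more and 9 with a coefficient of 0.1. The shares of all genes under these settings are given above. With 0.2 and 0.4 the count was 0, with 22 and 4 at an unadjusted p under 0.05, again without a share of all genes. The median log2 fold change of the members lay between -0.25 with clean tags and 0.01 with a minimum of 100 tags. Under the same settings the median of all genes was -0.22 and -0.13. Depth limits the 11 members with fewer than 20 tags.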
